A study of Homo sapiens with 6 samples.

Results

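The 9 laminin chain genes LAMA1, LAMA2, LAMA3, LAMA4, LAMA5, LAMB1, LAMB2, LAMB3 and LAMC1 were followed among the 56982 genes with a value in both deposited tables. They were chosen by symbol, and all 9 were found. Of these, 8 passed the filter on low values that left 15001 genes for testing, and LAMA3 did not. LAMB4 and LAMC3 are given beside them because an assembled laminin needs a chain of each class.

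Laminins are secreted heterotrimers of an alpha, a beta and a gamma chain, joined inside the cell through a long coiled coil before secretion. They are main components of basement membranes, the sheets of matrix under epithelia and around muscle, nerve and vessels, where alpha chains bind integrins and dystroglycan and gamma chains bind nidogen. Each laminin is named by the numbers of its 3 chains, so that laminin-511 is the trimer of LAMA5, LAMB1 and LAMC1.

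The data were poly(A) RNA-seq values of U2OS, a human osteosarcoma cell line, in log-phase growth at 65 to 75% confluency in DMEM with 10% foetal bovine serum. Wild-type (WT) cells gave 3 libraries, and cells named G3C2, labelled ZFP36L1 deficient after CRISPR/Cas9 editing, gave the other 3. The labels state that the deficiency was checked by sequencing and western blot. ZFP36L1 binds AU-rich elements of mRNAs and promotes their decay. All deficient libraries carry the same name, G3C2, so an effect of the genotype and one of that line cannot be told apart, and nothing in the labels ties the libraries of a genotype to separate edited lines. The p-values below reflect only how far these libraries spread, which may be partly technical.

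Values are FPKM, a level scaled for transcript length and library size, in a first table for replicate 1 and a second for replicates b and c. The tables have separate scales, so every genotype difference was taken within a table, in pairs of libraries that share a replicate label and are not known to share a culture, on the log2(FPKM + 1) scale, which understates differences of low genes. The second table held between 22614600 and 28977500 recovered reads per library, and the depth of the first is unknown. The library size implied by the FPKM values was close to the recovered reads in replicate b but not in c. It was 25406400 against 22614600 reads in WT c, and 22558800 against 25844700 in G3C2 c. The part of this scaling in the replicate c differences was not tested. ZFP36L1 mRNA itself was not lower throughout: WT libraries 1, b and c had 165, 57.1 and 127.5 FPKM, and the G3C2 libraries 238, 105 and 82.4 (log2 difference 0.26, SE 0.33, limma adjusted p = 0.752). Without replicate c it was 0.70 and passed (limma adjusted p = 0.0237), as did 905 of the 15001 genes tested. Without replicate b it was -0.050. The position of the edit is not given in the sources used here, so this mRNA level does not check the labels. Of the osteoblast markers, 3 of 8 (RUNX2, COL1A1 and SPP1) had at least 1 FPKM in every library, while IBSP was listed at 0 throughout, SP7 was at or near 0 and ALPL stayed under 1. COL1A1, a collagen chain of bone, had 209, 82.1 and 184 FPKM in WT (replicates 1, b, c) and 899, 248 and 192 in G3C2, with no overlap within a table (log2 difference 1.25, SE 0.41, limma adjusted p = 0.278). RUNX2, an osteoblast transcription factor, had 18.7, 7.27 and 7.57 FPKM in WT and 46.4, 15.3 and 6.41 in G3C2 (log2 difference 0.68, limma adjusted p = 0.442). The part of these markers in the laminin values was not tested.

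The main pattern among the laminin chains was a low level of the beta chain LAMB3 in G3C2. LAMB3 lay 4.34-fold, 4.30-fold and 12.3-fold under WT in replicates 1, b and c. The alpha chain LAMA4 lay 2.50-fold, 5.45-fold and 2.03-fold above WT, and LAMA2 lay under WT in every pair. These pairs are by label only. Across labels the gap of LAMA4 was smaller, with 1.04 FPKM in WT replicate b and 1.26 in G3C2 replicate c. LAMC1, LAMB1, LAMB2 and LAMA5, the most abundant chains in every G3C2 library, differed in opposite directions between replicates. In WT replicates b and c LAMB3 exceeded LAMB1 and LAMA5. After adjustment over all 15001 genes (limma, Benjamini-Hochberg, 0.05), 0 of the 8 tested chains passed, where 0.0467% of all genes (7) did. At an unadjusted p under 0.05 there were 3 chains, LAMB3 and LAMA2 lower and LAMA4 higher, against 7.43% of all genes lower, 6.19% higher and 13.6% in either direction. In bulk RNA, fewer cells that express a chain and less RNA per cell cannot be told apart.

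**Figure D1:**
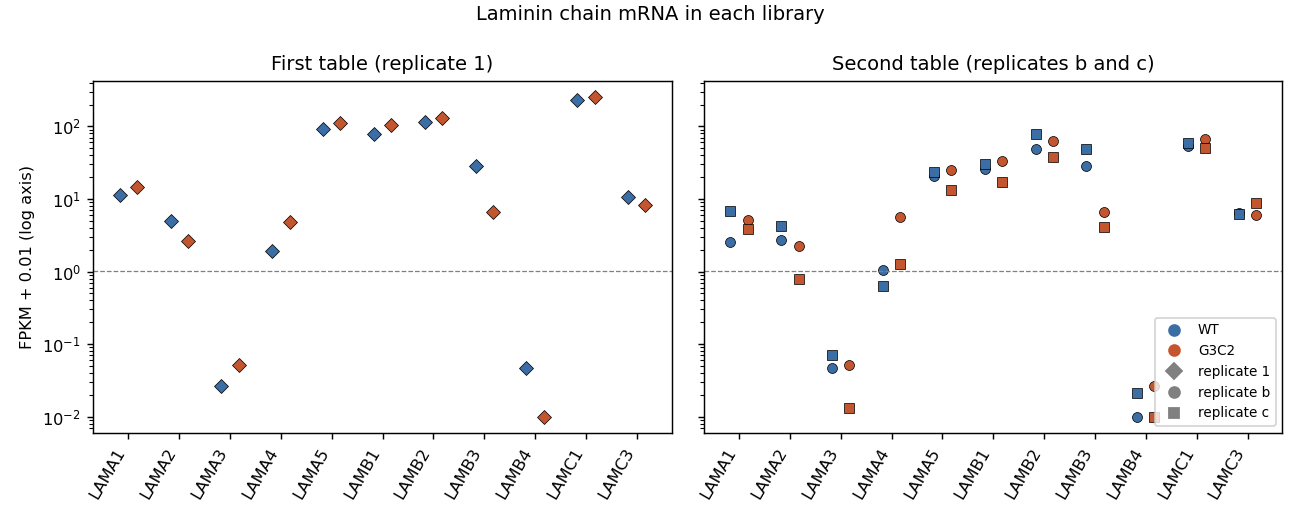
FPKM + 0.01 on a log axis for 11 laminin chain genes, with the first table (replicate 1, diamonds) on the left and the second (replicates b, circles, and c, squares) on the right. WT is blue, G3C2 is orange, and the dashed line marks 1 FPKM. LAMB3 is lower in every G3C2 library than in every WT library of its table, and LAMA3 and LAMB4 stay under 0.1 FPKM throughout.

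Among the beta chains, LAMB3 (ENSG00000196878, chromosome 1, 209614870 to 209652466, minus strand, GRCh38) is known as the beta chain of the laminin of epidermal anchorage. It had 28.4, 28.6 and 49.6 FPKM in WT (replicates 1, b, c), and 6.55, 6.64 and 4.05 in G3C2. The genotypes did not overlap within either table, and the WT library of replicate c was the highest and the G3C2 library of replicate c the lowest of the second table. The recovered reads behind these values were 3972 and 5905 in WT replicates b and c and 825 and 428 in G3C2. On the log2 scale the difference was -2.41 (SE 0.29, n = 3 per genotype), with -1.96, -1.95 and -3.32 for replicates 1, b and c, lower in 3 of 3 pairs. It missed the threshold over all genes (limma adjusted p = 0.0853). Without replicate b the difference was -2.64 (limma adjusted p = 4.73e-05) and without replicate c -1.96 (limma adjusted p = 0.0008), so these smaller fits, with 1 residual degree of freedom, passed. Without replicate b 211 of all 15001 genes passed, and without replicate c 905, against 7 with all libraries. For LAMB3, 3 of 21 alternative settings passed, these smaller fits among them. The difference was negative in all 21, which the lack of overlap fixed in advance for the fits with libraries left out.

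LAMB1 (ENSG00000091136, chromosome 7, 107923799 to 108003255, minus strand) and LAMB2 (ENSG00000172037, chromosome 3, 49121114 to 49133118, minus strand) are the beta chains of most other laminins. LAMB2 was the most abundant beta chain in every library. It had 115, 49.4 and 78.5 FPKM in WT and 131, 63.2 and 37.8 in G3C2, for replicates 1, b and c. LAMB1 had 78.7, 26.2 and 30.2 FPKM in WT and 106, 33.2 and 17.4 in G3C2. Both lay above WT in replicates 1 and b and below it in c, so the genotypes overlapped in the second table. The log2 difference of LAMB2 was -0.17 (SE 0.29, limma adjusted p = 0.826). That of LAMB1 was -0.0035 (SE 0.28, limma adjusted p = 0.997), and its sign turned to 0.027 with equal medians. Without replicate c the differences were 0.27 for LAMB2 and 0.38 for LAMB1. LAMB4, which lies 20.3 kb from LAMB1, was near 0: its recovered reads were 0 and 2 in WT replicates b and c and 3 and 0 in G3C2. A count of 0 allows up to 3 reads, and these limits cover counting error only.

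The promoters of the 3 expressed beta chains are shown because LAMB3 departed from its paralogs. These are the 150 bases before each start site, 5′ to 3′ on the gene's strand, from RefSeq (GRCh38.p14), at chr1:209652426-209652575 for LAMB3, chr3:49133051-49133200 for LAMB2 and chr7:108003162-108003311 for LAMB1. Capitals mark GGGCGG, the core of a GC box, on either strand (CCGCCC on the strand printed), and overlapping matches run together.
LAMB3: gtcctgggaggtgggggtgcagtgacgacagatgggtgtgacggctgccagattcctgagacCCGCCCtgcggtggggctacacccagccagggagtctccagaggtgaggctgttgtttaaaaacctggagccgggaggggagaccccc
LAMB2: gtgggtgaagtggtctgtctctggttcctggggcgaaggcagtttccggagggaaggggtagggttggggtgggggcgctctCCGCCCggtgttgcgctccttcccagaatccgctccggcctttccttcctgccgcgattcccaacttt
LAMB1: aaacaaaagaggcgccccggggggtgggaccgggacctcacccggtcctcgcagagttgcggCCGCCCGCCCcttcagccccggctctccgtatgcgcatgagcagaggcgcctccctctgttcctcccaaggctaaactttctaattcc
In the whole window of 300 bases, from 250 before the start site, GGGCGG occurred 1 time in LAMB3, 1 time in LAMB2 and 4 times in LAMB1. It was present in 44.6% of all 27305 promoters. TGANTCA, the AP-1 motif, which reads the same on both strands, was in none of these 3 windows. It occurred 2 times in the window of LAMA3 and in 7.76% of all promoters. The LAMA3 start site used lies inside the gene, with its 150 preceding bases at chr18:23872870-23873019, while the gene begins at 23689443. RefSeq windows matched 9 of the 11 chain genes given here, and LAMA1 and LAMC3 had no entry. A match to these letters is a description and not a site in use.

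LAMB3 therefore took a smaller part of the beta chain mRNA in G3C2. FPKM is per length, so shares of the summed FPKM of a class can be set side by side within a library. LAMB3 was 12.8%, 27.4% and 31.3% of the beta chains in WT replicates 1, b and c, and 2.70%, 6.44% and 6.83% in G3C2. Its mean share was 23.9% ± 9.75 (SD, n = 3) in WT and 5.32% ± 2.28 (SD, n = 3) in G3C2, and no G3C2 library reached the lowest WT library. In WT replicates b and c LAMB3 exceeded LAMB1, while in all 3 G3C2 libraries it was the least abundant of the 3 expressed beta chains. LAMB2 took 49.6% ± 2.14 (SD, n = 3) of the class in WT and 59.7% ± 5.20 (SD, n = 3) in G3C2. Shares of a class add up to the whole, so a lower LAMB3 share raises the others. The log2 difference of LAMB2 itself was -0.17 (SE 0.29). Each SD of these shares spans both tables. Few values of the first table came out as whole reads with GENCODE 29 exon lengths, so levels of different chains are less comparable between tables than within one.

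**Figure D2:**
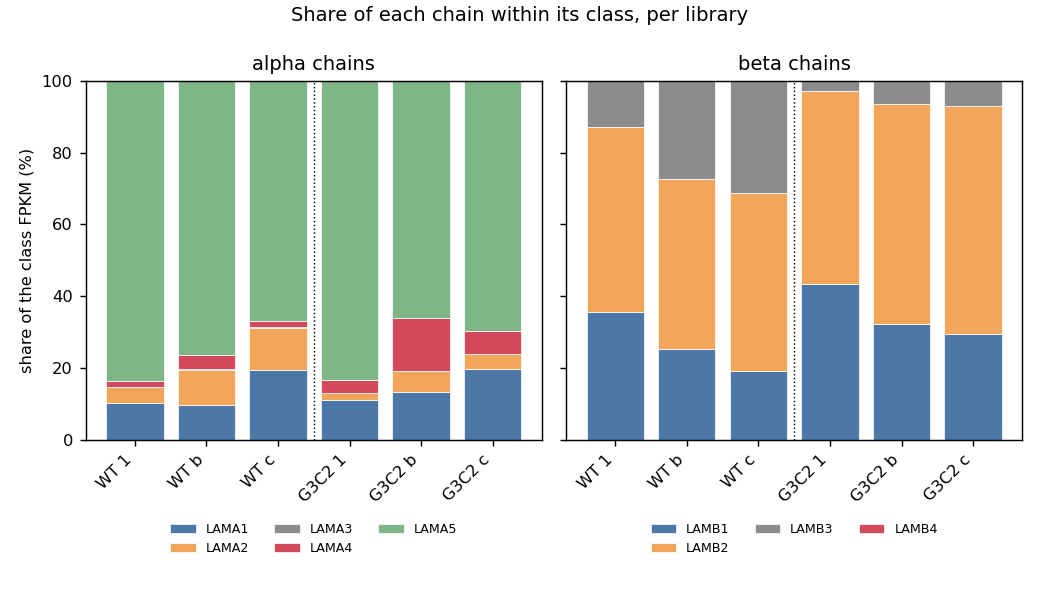
Stacked bars of the share (%) of each chain in the summed FPKM of the alpha and beta chains, 1 bar per library, with WT left and G3C2 right of the dotted line. LAMB3 (grey, right panel) takes 12.8% to 31.3% of the beta chains in WT and 2.70% to 6.83% in G3C2, and LAMA5 (green, left panel) 66.9% to 83.7% of the alpha chains in WT and 66.1% to 83.3% in G3C2.

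LAMC1 (ENSG00000135862, chromosome 1, 183023460 to 183145592, plus strand), the gamma chain shared by most laminins, was far more abundant than LAMC3 in every library. It had 232, 53.4 and 59.8 FPKM in WT (replicates 1, b, c) and 254, 68.1 and 50.3 in G3C2. G3C2 lay above WT in replicates 1 and b and below it in c. The log2 difference was 0.077 (SE 0.19, limma adjusted p = 0.878), and its sign turned to -0.12 with quantile normalization and to -0.057 without replicate b.

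LAMC3 (ENSG00000050555, chromosome 9), a gamma chain known from nervous tissue, had 10.6, 6.40 and 6.17 FPKM in WT and 8.22, 6.09 and 8.79 in G3C2. Its log2 difference was 0.018 (SE 0.19, limma adjusted p = 0.974), and the genotypes overlapped in the second table.

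Since ZFP36L1 binds AU-rich elements, the longest annotated 3′ untranslated region of each chain was searched for TATTTAT, the core of such an element, on the sense strand. It was found in LAMC1 and LAMC3 and in none of the alpha and beta chain genes, LAMB3 included. The sites are shown with the motif in capitals, from GENCODE 29 transcripts (GRCh38), all on the plus strand. They lie at chr1:183143417-183143423 and chr1:183145557-183145563 in LAMC1 and chr9:131093814-131093820 in LAMC3.
LAMC1 first site: gatgcaatTATTTATaaaagtct
LAMC1 second site: cagtatttTATTTATaataaaat
LAMC3: tttctcttTATTTATtgattttt
These regions were long, with 2802 bases in LAMC1 and 2686 in LAMC3, against 401 in LAMB3, 148 in LAMB1 and 112 in LAMB2. TATTTAT was in 36.0% of the 12115 tested genes with such a region. Among tested genes within 25% of the same length it was in 48.4% for LAMC1, 47.1% for LAMC3 and 8.88% for LAMB3. Whether ZFP36L1 binds any of these regions was not tested.

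Among the alpha chains, which carry the receptor-binding globular domains, LAMA5 (ENSG00000130702, chromosome 20, 62307955 to 62367312, minus strand) was by far the most abundant. LAMA5, the widespread alpha chain of adult basement membranes, had 92.9, 20.7 and 23.8 FPKM in WT (replicates 1, b, c) and 110.4, 25.4 and 13.5 in G3C2. It made up 75.7% ± 8.41 (SD, n = 3) of the alpha chain FPKM in WT and 73.0% ± 9.08 (SD, n = 3) in G3C2, where each SD spans both tables. In the first table the shares were 83.7% in WT and 83.3% in G3C2. In the second, for replicates b and c, they were 76.5% and 66.9% in WT and 66.1% and 69.7% in G3C2. The log2 difference was -0.082 (SE 0.26, limma adjusted p = 0.909), positive in replicates 1 and b, negative in c, and 0.26 without replicate c. LAMA5 lies in the distal part of chromosome 20, where the 78 other tested protein-coding genes from 50 Mb on had median log2 differences of 0.49, 0.39 and 0.50 for replicates 1, b and c, relative to all protein-coding genes. LAMA5 itself had 0.25, 0.28 and -0.78, which are not relative to those genes.

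LAMA1 (ENSG00000101680, chromosome 18, 6941744 to 7117814, minus strand), the alpha chain of the early embryo, came next in every library except WT replicate b, where LAMA2 exceeded it, and G3C2 replicate b, where LAMA4 did. It had 11.2, 2.58 and 6.86 FPKM in WT and 14.6, 5.11 and 3.81 in G3C2. The lowest and the highest library of the second table were both WT. The log2 difference was 0.14 (SE 0.31, limma adjusted p = 0.865). It was -0.18 without replicate b.

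LAMA4 (ENSG00000112769, chromosome 6, 112108760 to 112254939, minus strand) is the alpha chain of vessels and mesenchymal cells. It had 1.94, 1.04 and 0.622 FPKM in WT (replicates 1, b, c) and 4.85, 5.65 and 1.26 in G3C2. G3C2 was above WT within each table, and its own libraries b and c differed more from each other than the WT libraries did. Behind the second table's values stood 356 and 183 recovered reads in WT and 1735 and 330 in G3C2. The log2 difference was 1.06 (SE 0.39, n = 3 per genotype), higher in 3 of 3 pairs, and did not pass over all genes (limma adjusted p = 0.320). Without replicate c it was 1.35 and passed (limma adjusted p = 0.0207), as did 905 of all 15001 genes. Without G3C2 replicate b it was 0.61 (limma adjusted p = 0.480).

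LAMA2 (ENSG00000196569, chromosome 6, 128883141 to 129516569, plus strand), the alpha chain of muscle and peripheral nerve, went the other way. It had 4.91, 2.72 and 4.20 FPKM in WT and 2.64, 2.25 and 0.779 in G3C2. All G3C2 libraries were lower within their table, although WT and G3C2 were close in replicate b, with 835 and 618 recovered reads. The log2 difference was -0.81 (SE 0.26, n = 3 per genotype), lower in 3 of 3 pairs (limma adjusted p = 0.275). Without G3C2 replicate c it was -0.55, and without replicate c -0.45. The shares of LAMA2 in the alpha chain FPKM were 4.42% to 11.8% in WT and 1.99% to 5.85% in G3C2. Those of LAMA4 were 1.75% to 3.83% and 3.66% to 14.7%. These ranges overlapped only across the tables, and within each table neither chain's shares did. In the second table LAMA2 had 10.0% and 11.8% in WT (replicates b, c) and 5.85% and 4.03% in G3C2. LAMA4 had 3.83% and 1.75% there in WT and 14.7% and 6.54% in G3C2.

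LAMA3 (ENSG00000053747, chromosome 18, 23689443 to 23956222, plus strand), the epithelial alpha chain, was nearly absent. It had 0.0165, 0.0374 and 0.0611 FPKM in WT and 0.0414, 0.0418 and 0.00328 in G3C2, and was not tested. Its values did not come out as whole reads with the GENCODE 29 exon length, so no read count is given. In the order of alpha chain levels, LAMA5 stood above LAMA1, and LAMA1 above LAMA3, in all 6 libraries. The ranges of LAMA1, LAMA2 and LAMA4 overlapped in the second table.

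**Figure D3:**
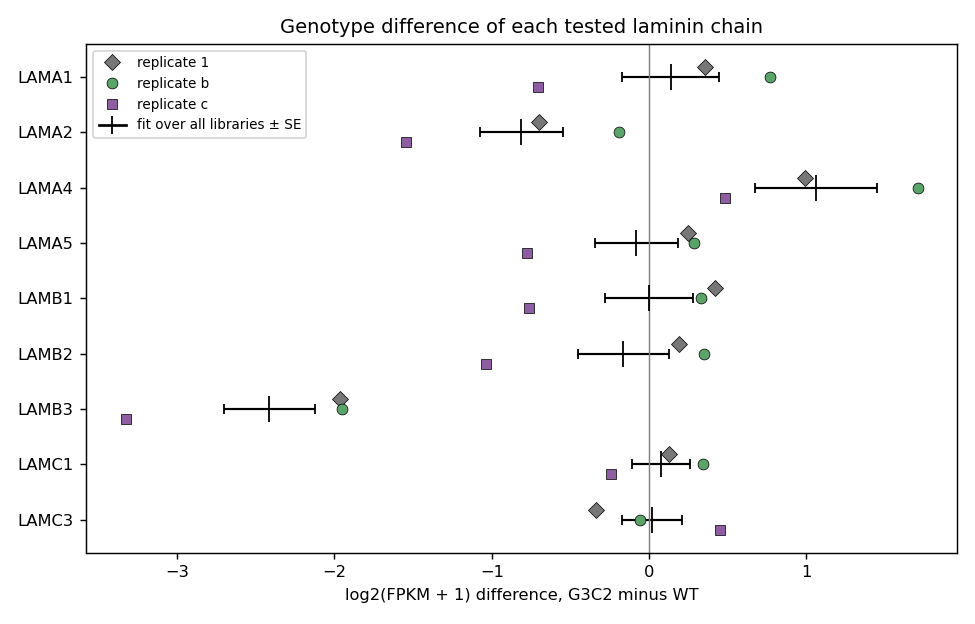
Differences in log2(FPKM + 1), G3C2 minus WT, for 9 tested chain genes, as 1 point per replicate pair (diamond 1, circle b, square c) and the limma estimate over all 6 libraries with its SE (black bar). LAMA2 and LAMB3 lie left of 0 in all 3 pairs, LAMA4 right of 0, and for LAMA1, LAMA5, LAMB1, LAMB2 and LAMC1 replicate c lies opposite to 1 and b.

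The 5 remaining tested chains shared a pattern across the replicates. LAMA1, LAMA5, LAMB1, LAMB2 and LAMC1 each lay above WT in replicates 1 and b and below it in c, a combination found in 10.3% of all genes tested. This pattern rests on pairing b and c by label, which the data do not bear out. The log2 differences of these 5 chains over all libraries lay between -0.17 and 0.14, with SE between 0.19 and 0.31 and limma adjusted p between 0.826 and 0.997. Within the second table, which shares a scale, 7 of the 8 tested chains were higher in WT replicate c than in WT b and lower in G3C2 c than in G3C2 b, as 23.8% of all genes were. LAMA4 was the exception, since its WT value was also lower in c. The median move from b to c was 0.34 in WT and -0.80 in G3C2 for the chains, and -0.057 and 0.048 over all genes.

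Other values moved with these libraries. Genes of the mitochondrial genome took 13.8% of the summed FPKM in WT replicate c, against 8.72% in WT b, 7.39% in G3C2 b and 6.67% in G3C2 c. RPSA, a ribosomal protein also described as a laminin receptor, had 193 FPKM in WT c, 329 in WT b, 311 in G3C2 b and 497 in G3C2 c. The part of these library differences in the laminin values was not tested. A test of whether the genotype difference itself differed between the tables (limma interaction) passed for 0 of the 8 chains and for 0% of all genes, with adjusted p between 0.948 and 0.989 for the chains. No chain had an unadjusted p under 0.05 there, against 2.86% of all genes.

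Counted over the 8 tested chains, the libraries of the genotypes stood apart within each table for 1 chain higher in G3C2 (LAMA4) and 2 lower (LAMA2 and LAMB3). Over all genes tested, 14.9% stood apart higher and 14.8% lower, so these counts are not far from the background. The same chains had the same sign in all 3 pairs, 1 higher and 2 lower, against 17.8% and 18.6% of all genes. The median log2 difference of the 8 chains was -0.043, against 0.011 for all genes. Among the 8 tested chains, LAMB3 had the largest absolute log2 difference in each of the 3 pairs. This ranking was made with the values known, and no share over all genes is given for it.

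The chains that U2OS cells express limit which trimers could form. Of 13 chain combinations described for laminins, 8 had all 3 chains at 1 FPKM or more in every WT library, and 8 in every G3C2 library, but not the same 8. Laminin-111, 121, 511, 521 and 523 were covered in both genotypes. Laminin-211, 221 and 213 were covered in WT alone, since LAMA2 was at 0.779 FPKM in G3C2 replicate c. Laminin-411, 421 and 423 were covered in G3C2 alone, since LAMA4 was at 0.622 FPKM in WT replicate c. Each of these exceptions rests on 1 library, and with 0.5 FPKM as the limit 11 combinations were covered in both genotypes. Laminin-311 and 321 were covered in neither, because LAMA3 was near 0.

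The least abundant chain of laminin-511 had 78.7, 20.7 and 23.8 FPKM in WT (replicates 1, b, c) and 106, 25.4 and 13.5 in G3C2. No other combination but laminin-521 reached these levels. At a limit of 5 FPKM in every library, 3 combinations remained in each genotype, all with LAMA5. LAMB3, which is known to assemble with LAMA3, was thus expressed in WT cells at 28.4 to 49.6 FPKM with hardly any LAMA3 mRNA. These are mRNA levels, and no trimer was measured.

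**Figure D4:**
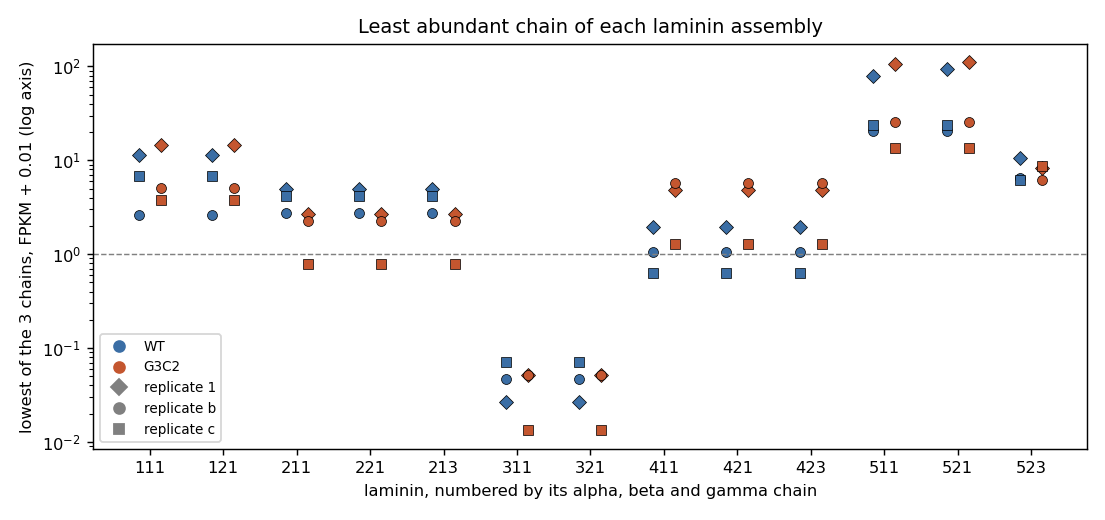
For each of 13 laminins, named by chain numbers on the x axis, the FPKM + 0.01 (log axis) of its least abundant chain in each library, WT in blue and G3C2 in orange, with diamonds, circles and squares for replicates 1, b and c. The combinations with LAMA5 and LAMC1 lie highest, those with LAMA3 lie under 0.1 FPKM, and those with LAMA2 or LAMA4 cross the dashed line at 1 FPKM.

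The receptors of laminins were described from a list of 13 genes, all tested. None passed over all genes (limma), and at an unadjusted p under 0.05 there were 1 higher and 2 lower, against 6.19% and 7.43% of all genes. BCAM, the Lutheran glycoprotein that binds LAMA5, had 41.9, 29.3 and 21.4 FPKM in WT (replicates 1, b, c) and 84.1, 44.9 and 32.8 in G3C2, with no overlap within a table. Its log2 difference was 0.73 (SE 0.21, limma adjusted p = 0.236). ITGA2, an integrin alpha subunit for collagen and laminin, had 8.07, 4.12 and 5.92 FPKM in WT and 5.78, 2.34 and 1.12 in G3C2 (log2 difference -0.92, SE 0.26, limma adjusted p = 0.232). ITGA6, the laminin-binding subunit of hemidesmosomes, had a log2 difference of -0.44 (SE 0.17, limma adjusted p = 0.346), lower in 3 of 3 pairs.

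The abundant receptor genes were ITGB1, RPSA, ITGA3 and CD151. ITGB1, the common integrin beta subunit, was lower in G3C2 in all 3 pairs (-0.013, -0.31 and -0.92 for replicates 1, b and c, limma adjusted p = 0.511). ITGA3, its partner in the laminin-binding integrin of many epithelial cells, had 0.32, 0.22 and -0.70, the pattern of LAMA5 and LAMB1. SDC4, a syndecan, was higher in all 3 pairs (log2 difference 0.76, SE 0.33, limma adjusted p = 0.387). The receptor list had a median log2 difference of -0.031, against 0.011 for all genes.

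**Figure D5:**
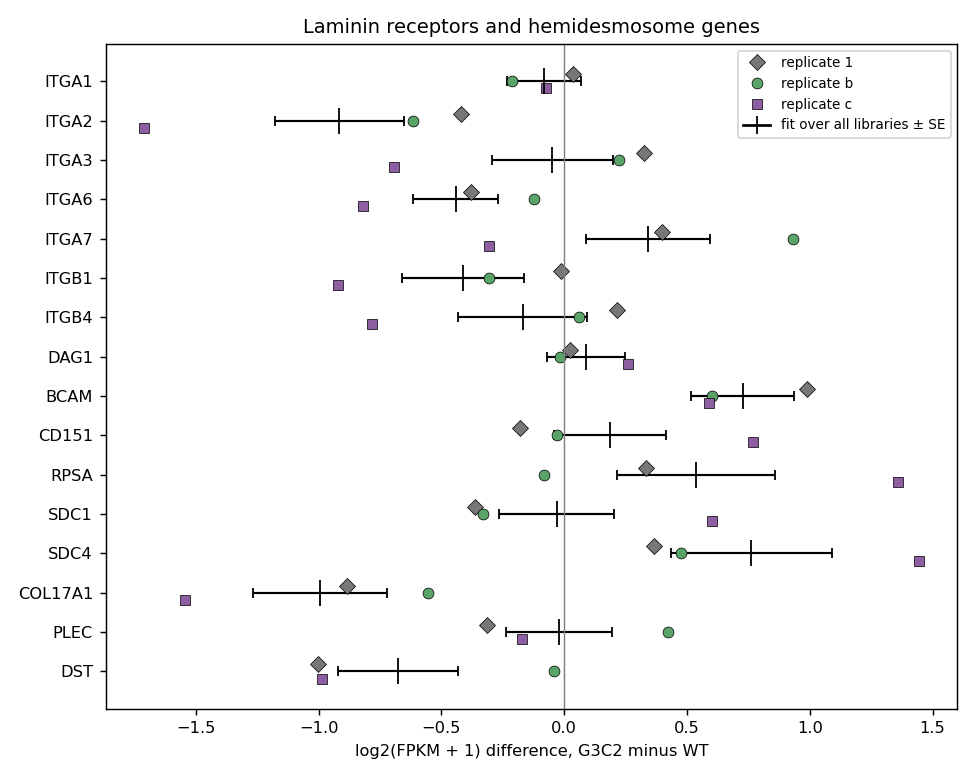
Differences in log2(FPKM + 1), G3C2 minus WT, for 13 laminin receptor genes and 3 further hemidesmosome genes, as 1 point per replicate pair (diamond 1, circle b, square c) and the limma estimate over all 6 libraries with its SE (black bar). COL17A1, ITGA2, ITGA6, ITGB1 and DST lie left of 0 in all 3 pairs and BCAM and SDC4 right of 0, and none passed over all genes.

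Hemidesmosomes anchor epithelial cells to the laminins of the basement membrane. Of the 6 hemidesmosome genes, 3 (ITGA6, COL17A1 and DST) were lower in G3C2 without overlap within a table, none was higher without overlap, against 14.8% lower and 14.9% higher of all genes, and 0 passed the limma test over all genes. COL17A1, the transmembrane collagen of hemidesmosomes, had 1.54, 0.934 and 2.90 FPKM in WT (replicates 1, b, c) and 0.375, 0.317 and 0.338 in G3C2 (log2 difference -0.99, SE 0.27, limma adjusted p = 0.215). DST, a cytoskeletal linker, had a log2 difference of -0.68 (SE 0.25, limma adjusted p = 0.316), close to 0 in replicate b (-0.043). PLEC, plectin, had -0.021 (SE 0.22). ITGB4, the beta subunit specific to hemidesmosomes, had only 1.74, 1.89 and 1.85 FPKM in WT and 2.18, 2.02 and 0.656 in G3C2. The list had a median log2 difference of -0.31.

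Epithelial markers did not share 1 direction. Of 8, 3 had at least 1 FPKM in every library: EPCAM and the keratins KRT8 and KRT18. KRT8 exceeded WT in each of the 3 pairs (log2 difference 0.51, SE 0.17, limma adjusted p = 0.274), and EPCAM was lower in replicates 1 and b (-1.28 and -0.89) and higher in c (0.084). Of the markers of basal keratinocytes, TP63 and KRT5 had 0.364 FPKM or less in all 6 libraries. KRT14, the keratin partner of KRT5, had 0.281, 3.84 and 0.276 FPKM in WT (replicates 1, b, c) and 2.47, 6.30 and 0.194 in G3C2 (log2 difference 0.64, SE 0.80, limma adjusted p = 0.746). KRT14 was highest in both b libraries, and the genotypes overlapped in the second table. The summed epithelial markers ranged from 62.0 to 187 FPKM in WT and from 77.0 to 231 in G3C2. No endothelial (of 5) or blood (of 5) marker reached 1 FPKM in every library. The part of these cell types in the laminin values was not tested.

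Partners of laminin in basement membranes were 18 genes, of which 13 were tested and 0 passed over all genes (limma), with 2 lower at an unadjusted p under 0.05, against 7.43% of all genes. The most abundant, SPARC, AGRN (agrin), COL4A2 and PXDN (peroxidasin), had log2 differences of -0.016, 0.12, -0.16 and -0.0039, with limma adjusted p between 0.779 and 0.997. Of the 13, 9 lay above WT in replicates 1 and b and below it in c, as LAMA5, LAMB1, LAMB2 and LAMC1 did, against 10.3% of all genes. The list medians were 0.34, 0.14 and -0.69 for replicates 1, b and c, and those of the 8 laminin chains 0.22, 0.34 and -0.77. COL4A4, a chain of type IV collagen, was lower in 3 of 3 pairs (log2 difference -0.69, SE 0.25, limma adjusted p = 0.316). The other gene lower at an unadjusted p under 0.05 was COL7A1, the anchoring fibril collagen, named after its value was seen (log2 difference -1.02), and its genotypes overlapped.

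Enzymes that glycosylate dystroglycan, which binds laminin through its sugar chain, are given for 10 genes, all tested. None passed over all genes (limma), and 2 were higher and 0 lower at an unadjusted p under 0.05, against 6.19% and 7.43% of all genes. These were POMGNT1 (log2 difference 0.48, SE 0.14, limma adjusted p = 0.244) and RXYLT1 (0.60, SE 0.19, limma adjusted p = 0.275), each higher in 3 of 3 pairs. Laminin-cleaving proteases were 7 genes with 5 tested, and none had an unadjusted p under 0.05. MMP2 and MMP14, matrix metalloproteinases, had 1.03, 0.63 and -1.51, and 0.72, 0.41 and -0.62, in replicates 1, b and c. Of the netrins and other relatives of the laminin N-terminal domain, 4 of 6 were tested and none had an unadjusted p under 0.05. NTN4, a netrin that binds laminin gamma chains, had a log2 difference of -0.11 (SE 0.29, limma adjusted p = 0.883).

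The pattern of LAMB3 over the 6 libraries, centred within each table, was most like that of GSDME, DNAJB5 and OPTN among 12151 other protein-coding genes, with Pearson r of 0.999, 0.998 and 0.998. For LAMC1 the nearest were ZNF772 (0.995), ZNF48 (0.991) and RBM12B (0.990). With 6 libraries these values describe likeness only, and the genes share libraries and scale. None of the 3 genes like LAMB3 had as large a difference: their log2 differences lay at -0.58, -0.78 and -0.68.

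The neighbourhood of each chain on its chromosome was examined as well. The 59 tested protein-coding genes that start within 5 Mb of LAMB3 had median log2 differences of 0.056, -0.0088 and 0.0014 for replicates 1, b and c, relative to all protein-coding genes. LAMB3 itself had -1.96, -1.95 and -3.32. Around LAMA1, 28 genes had medians of 0.52, 0.36 and 0.32, beside 0.35, 0.77 and -0.71 for LAMA1 itself. The values of LAMB3 and LAMA1 themselves are not relative to all protein-coding genes.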

How the data were processed

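Gene values were deposited as FPKM by the authors in 2 tables, per the labels. Per the submitters' processing notes, CASAVA and HISAT2 were used, with GRCh38.p12 as the build and no tool versions. The read counter, strand setting and annotation are not given in the sources used here. Symbols, coordinates and exon lengths came from GENCODE 29. Genes present in both tables that reached 1 FPKM in 2 or more libraries were fitted with limma 3.58.1 (R 4.3.3) on log2(FPKM + 1), with terms for genotype and table, an intensity trend in the variance and p-values adjusted by Benjamini-Hochberg at 0.05. The test was also run on simulated data.

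From the steps of low values, 97.3% to 97.4% of the second table's values above 0 were whole reads within 0.02. Of the first table's values, 34.0% to 35.6% were, so its depth was not recovered. Precision there is unknown.

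Same-labelled libraries deviated together from their group means (r = 0.93, 0.80 and 0.60 for 1, b and c), but having 2 tables is enough to give this, and between b and c alone r was -0.17. The data therefore do not show that b pairs with b or c with c, and pairs are named by label only.

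The members and gene lists were chosen with earlier results of these data known. Within a list, the genes named were those past the threshold, up to 4 of the most abundant and up to 3 with the largest difference of the same sign in all pairs. ITGB4, TP63, KRT5, COL7A1, the promoter motifs and the neighbouring genes were added with their values known. Some chain, pathway and assembly results are not reported here, and counts over lists leave those genes out. Python 3.11.15, pandas 2.3.3 and matplotlib 3.10.9 were used for the other steps.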

Additional observations from a re-analysis of the deposited data

How the results depend on the processing

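The count of laminin chains past the threshold was 0 under every alternative other than leaving out libraries, apart from the crossed block (of 8 tested chains, 9 without a filter and 6 with the filter on mean FPKM). The replicate block changed no chain's call and gave 1 called gene against 7. The crossed block, chosen after the data were seen since r within the second table was -0.17, gave 1 chain and 8 genes. With single libraries or pairs omitted there were 0 to 2 chains and 0 to 905 genes, the most without replicate c. The cause was not tested. Called genes numbered 0 without a filter (genes at 0 throughout left out), with no term for the table, on only the second table with or without the replicate block, and with limma-voom on its recovered reads, 3 at a mean FPKM of at least 5, and 11 with equal medians. LAMB3, LAMA2 and LAMA4 kept their sign in all settings, with ranges of -3.05 to -1.96, -1.52 to -0.45 and 0.61 to 1.53. With libraries left out the sign could not turn, since the genotypes of these chains did not overlap within a table. Several other settings change the SE alone. The mean FPKM filter removed LAMA2 and LAMA4.

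Signs turned for chains near 0. LAMA1 was -0.10 with limma-voom, -0.16 without WT replicate b and -0.18 without replicate b, and up to 0.56 without replicate c. LAMA5 was 0.019 without WT replicate c, 0.21 without deficient replicate c and 0.26 without replicate c, and -0.28 without deficient replicate b. LAMB1 was 0.027 with equal medians, 0.0012 without WT replicate b, 0.11 without WT replicate c, 0.31 without deficient replicate c and 0.38 without replicate c, and -0.22 without WT replicate 1. LAMB2 was 0.074, 0.093 and 0.27 without WT replicate c, deficient replicate c and replicate c, and -0.42 without replicate b. The lowest values of LAMA5, LAMB1 and LAMB2 were -0.45, -0.42 and -0.54, each with limma-voom. LAMC1 was -0.12 with quantile normalization, -0.14 with limma-voom, -0.038 without deficient replicate b and -0.057 without replicate b, and 0.24 without replicate c. ZFP36L1 was -0.069 with limma-voom, -0.033 without WT replicate b and -0.050 without replicate b, and 0.70 without replicate c. With a limit of 5 FPKM, laminin combinations with every chain present fell from 8 to 3 in each genotype. With genotype means they were 8 in WT and 11 in G3C2. The mean LAMB3 share lay between 20.1% and 29.4% in WT and between 4.57% and 6.63% in G3C2 with 1 library left out.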
